A study of Mus musculus with 7 samples.

Results

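The 7 genes described here are *Gm42427*, *Gm42031*, *Cnbd2*, *Malat1*, *Neat1*, *Miat* and *Snhg11*, taken by name from the 49492 genes of the count table. *Gm42427*, *Gm42031* and *Cnbd2* were picked because their counts were high in NPCTKO libraries 3 and 4, so their split between libraries is a description and carries no test. *Malat1*, *Neat1*, *Miat* and *Snhg11* were added as reference noncoding RNAs. The label of abundant noncoding RNAs held only in part. GENCODE and RefSeq both call *Malat1*, *Neat1*, *Miat* and *Gm42031* long noncoding, both call *Cnbd2* protein coding, and they differ on *Gm42427* and *Snhg11*. *Gm42427* is a transcript still to be verified by experiment in GENCODE and protein coding in RefSeq, whereas *Snhg11* is protein coding in GENCODE and noncoding in RefSeq.

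The study sequenced poly(A)-selected RNA from mouse glioblastoma (GBM) in 2 genetic models, labelled C57BL/6 and 3 months of age. The 4 NPCTKO libraries came from tumors started by in utero electroporation of embryonic neocortical precursors with Cas9 plasmids against tumor suppressor genes, *Trp53* and *Nf1* among them, plus an EGFP or DsRed lineage cassette, and the fluorescent GBM cells were sorted before RNA isolation. The 3 NSCHRas-shp53 libraries came from tumors started by lentivirus with a *Trp53* shRNA and human HRAS G12V in the subventricular zone of adult mice, and whole GBM tissue was used. The study raised its tumors in reporter mice. It kept *Tbx18* H2B-GFP mice, hosts of DsRed tumors, on a mixed C57BL/6 and CD-1 background, and its *Tek-Cre* and *Ai14* lines on C57BL/6. Which line carried the tumor of each library used here is not stated in the study. Loss or knockdown of *Trp53* is common to both models, and no library without a tumor was used here. Model and preparation change together and cannot be told apart, and although the study speaks of separate samples and tumors, the labels do not name the animal behind each library, so a p-value measures only the spread between these libraries.

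Total counts lay between 15002873 and 19247326 in NPCTKO and between 17529054 and 19840860 in NSCHRas-shp53 libraries. NPCTKO 1 and 2 stood apart from NPCTKO 3 and 4, with a Pearson r of log2 levels across genes of 0.98 between 1 and 2, of 0.95 between 3 and 4 and of 0.82 to 0.88 across. Levels are given as CPM (a gene's share of the library's counts, on the usual CPM scale) scaled by trimmed mean of M values (TMM) factors, and a count of 3, taken as the floor, was worth 0.13 to 0.23 CPM. Marker genes of several cell types also differed between libraries or models. The summed CPM of 18 tumor-associated macrophage markers was 23098, 29649, 709 and 4642 in NPCTKO 1 to 4, against 10317, 3767 and 4527 in NSCHRas-shp53 1 to 3, with *P2ry12* at 0 counts in all of them. The 18 neuron markers summed to 229 to 467 CPM in NPCTKO and 1438 to 1976 CPM in NSCHRas-shp53 libraries, with *Nefl* at 0 counts in all. The 14 astrocyte markers summed to 308 to 930 CPM in NPCTKO and 3508 to 4398 CPM in NSCHRas-shp53 libraries. The 12 endothelial markers summed to 52.8 to 414 CPM in NPCTKO and 773 to 1542 CPM in NSCHRas-shp53 libraries, and the 12 oligodendrocyte precursor markers to 3534 to 8273 CPM in NPCTKO and 996 to 1716 CPM in NSCHRas-shp53 libraries, with *Gpr17* at 0 counts in all. The 12 mural cell markers summed to 349 to 932 CPM in NPCTKO and 378 to 626 CPM in NSCHRas-shp53 libraries, while their median log2 fold change was -3.20, with 7 called lower and 1 higher. The sums of oligodendrocyte, T cell and erythroid markers overlapped between the models. In bulk samples, fewer cells of a type and less RNA per cell cannot be told apart.

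Long noncoding RNAs are transcripts without a long translated frame, and several of them work inside the nucleus. *Malat1* gathers in nuclear speckles, bodies that hold splicing factors, and *Neat1* is the RNA scaffold on which paraspeckle proteins assemble. *Miat* is a nuclear RNA of neural precursors and neurons, and *Snhg11* is a small nucleolar RNA host gene that is abundant in neurons of the mouse brain. *Cnbd2* codes for a cyclic nucleotide binding protein that is needed for sperm formation in the mouse.

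To show the starts of a pair of reference RNAs whose levels ran together, the RefSeq windows of *Malat1* and *Snhg11* are printed from 250 bases before to 50 bases after the start (GRCm38.p6, 5′ to 3′ on the gene's strand). The *Malat1* window is chr19:5802623-5802922 on the minus strand and the *Snhg11* window is chr2:158375463-158375762 on the plus strand. Capitals mark TGACG on either strand, the core that cAMP response element binding proteins are known to read.

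Malat1: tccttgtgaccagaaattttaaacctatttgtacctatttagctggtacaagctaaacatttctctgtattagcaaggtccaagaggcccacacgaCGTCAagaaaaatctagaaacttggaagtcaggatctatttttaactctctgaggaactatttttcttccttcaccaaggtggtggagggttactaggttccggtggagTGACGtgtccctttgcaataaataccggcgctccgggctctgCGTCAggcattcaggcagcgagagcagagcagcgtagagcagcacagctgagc

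Snhg11: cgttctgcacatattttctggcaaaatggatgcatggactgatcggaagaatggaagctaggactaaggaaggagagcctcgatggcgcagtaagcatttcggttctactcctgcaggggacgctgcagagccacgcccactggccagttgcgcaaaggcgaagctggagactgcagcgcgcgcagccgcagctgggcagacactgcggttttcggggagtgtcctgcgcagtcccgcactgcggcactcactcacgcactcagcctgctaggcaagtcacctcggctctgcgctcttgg

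In all, 6 motifs were searched on both strands over 32851 RefSeq windows of the same length. The TATA box as TATAAA was found in 13.6% of the windows, the Sp1 box as GGGCGG in 35.7% of them and the CCAAT box in 37.4%. TGACG was found in 20.8% of the windows, the ETS core as ACTTCCG in 6.42% of them and the E-box CACGTG in 7.15%. *Malat1* held TGACG 3 times, starting 154, 45 and 3 bases before the start, and *Snhg11* held none of the 6 motifs. A match is not a bound site. The GC content was 47.0% for *Malat1* and 60.0% for *Snhg11*, against a median of 52.7% over all windows. Windows were matched for 5 of the 7 genes.

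*Gm42427* was the most counted gene of NPCTKO 3 and NPCTKO 4. It lies at chr5:44137980-44143271 on the plus strand (mm10) and is annotated as a single exon. It had 5173, 4898, 319641 and 273957 counts in NPCTKO 1 to 4, against 1317, 1691 and 2091 counts in NSCHRas-shp53 1 to 3. Those are 0.0269%, 0.0291%, 1.95% and 1.83% of all counts in NPCTKO 1 to 4, against 0.00714%, 0.00965% and 0.0105% in NSCHRas-shp53 1 to 3. By count, not corrected for length, it ranked 591, 519, 1 and 1 in NPCTKO 1 to 4, against 3330, 2368 and 2314 in NSCHRas-shp53 1 to 3.

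After TMM scaling *Gm42427* was at 347, 381, 16622 and 16531 CPM in NPCTKO 1 to 4, against 71.8, 85.6 and 90.3 CPM in NSCHRas-shp53 1 to 3. All 4 NPCTKO libraries lay above all 3 NSCHRas-shp53 libraries. NPCTKO 1 and 2 were closer to the NSCHRas-shp53 level than to NPCTKO 3 and 4. The log2 fold change between models was 6.68 with a standard error (SE) of 1.72. It was 7.62 (SE 0.53) without NPCTKO 1 and 2, and 2.15 (SE 0.21) without NPCTKO 3 and 4. Both omissions were chosen after seeing the data. The first keeps only the NPCTKO libraries for which the gene was picked, so its SE is no measure of support.

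*Gm42031* is a long intergenic RNA of 2 exons at chr8:85125872-85132289 on the minus strand. It had 47.3, 42.5, 1883 and 1689 CPM in NPCTKO 1 to 4, against 16.4, 10.4 and 6.52 CPM in NSCHRas-shp53 1 to 3. Again the models did not overlap, and NPCTKO 3 and 4 stood far above the rest. Its log2 fold change was 6.36 (SE 1.63), 7.30 (SE 0.51) without NPCTKO 1 and 2, and 2.03 (SE 0.38) without NPCTKO 3 and 4. These omissions have the same limits as for *Gm42427*.

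*Cnbd2* spans chr2:156312299-156375638 on the plus strand. It had 13.9, 15.2, 609 and 500.0 CPM in NPCTKO 1 to 4, against 11.2, 15.3 and 11.2 CPM in NSCHRas-shp53 1 to 3. NPCTKO 1 and 2 lay within the NSCHRas-shp53 range. Without NPCTKO 3 and 4, an omission chosen after seeing the data, its log2 fold change was 0.22 (SE 0.29), against 4.5005 (SE 1.43) with all libraries.

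The count ratio of *Gm42427* to *Gm42031* was 7.35, 8.97, 8.83 and 9.78 in NPCTKO 1 to 4, against 4.38, 8.21 and 13.8 in NSCHRas-shp53 1 to 3. The ratio of *Gm42427* to *Cnbd2* was 25.0, 25.1, 27.3 and 33.1 in NPCTKO 1 to 4, against 6.42, 5.60 and 8.04 in NSCHRas-shp53 1 to 3. Across the 7 libraries log2(CPM + 1) of *Gm42427* and *Gm42031* had a Pearson r of 0.99, which describes libraries that share the split. Together the 3 genes took 2.24% of NPCTKO 3 and 2.07% of NPCTKO 4, and at most 0.0335% of any other library. Macrophage markers were lower in NPCTKO 3 and 4 than in NPCTKO 1 and 2, as given above, and their part in these levels was not tested.

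**Figure D1:**
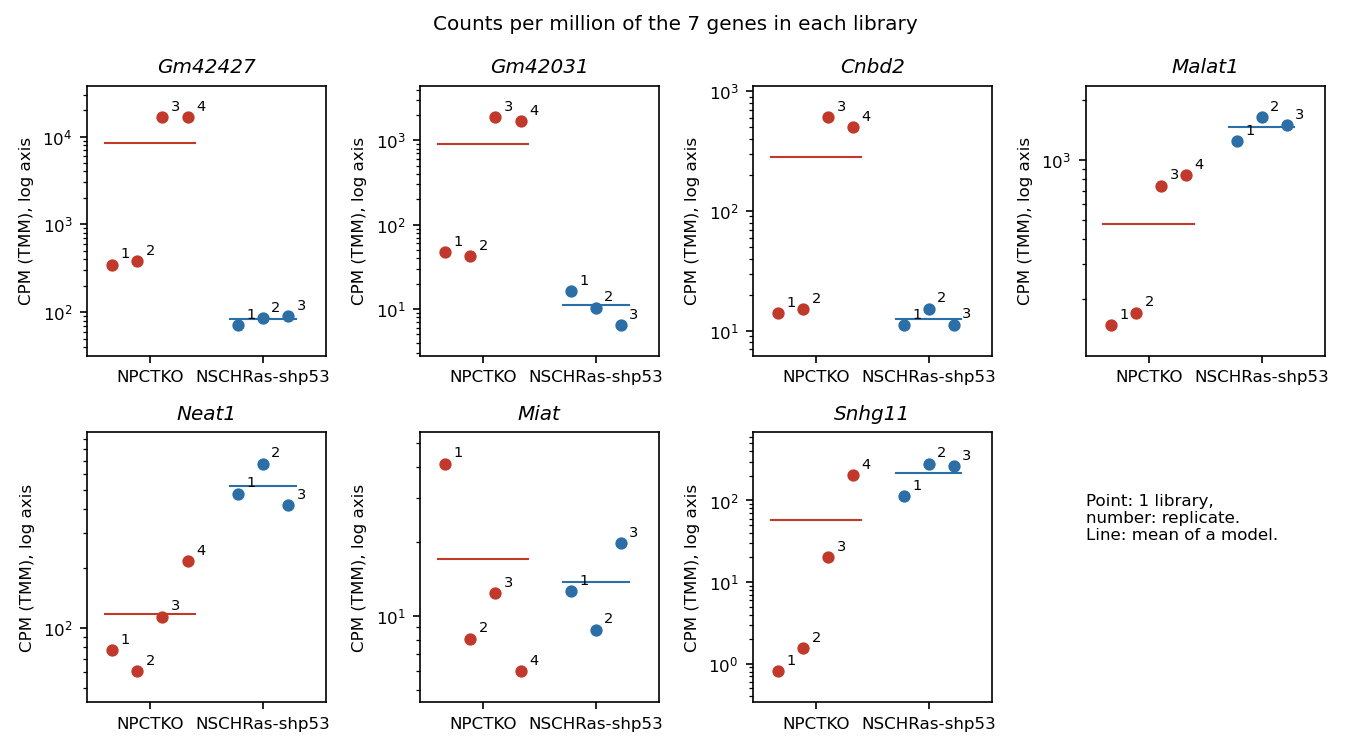
CPM after TMM scaling (log axis) of each gene in each library, with NPCTKO to the left of NSCHRas-shp53. Numbers are replicates and lines are means of a model. *Gm42427*, *Gm42031* and *Cnbd2* are highest in NPCTKO 3 and 4, *Malat1* and *Neat1* are higher in every NSCHRas-shp53 library than in any NPCTKO library, and *Snhg11* runs over a 351-fold range.

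The split was then placed among all genes. Of 10867 genes with a mean CPM of at least 10, 1801 (16.6%) had NPCTKO 3 and 4 each above the other 5 libraries, 159 (1.46%) at least 2-fold and 5 (0.046%) at least 10-fold. *Gm42427*, *Gm42031* and *Cnbd2* are among these 5 by selection, at 43.4-fold, 35.7-fold and 32.7-fold for the lower of NPCTKO 3 and 4 over the highest other library. The others, named after their values were seen, were *Gm43305* at 21.1-fold and *Rpsa-ps10*, whose name marks it as a pseudogene copy of the ribosomal protein gene *Rpsa*, at 14.1-fold. None of the 4 reference RNAs had the split.

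**Figure D2:**
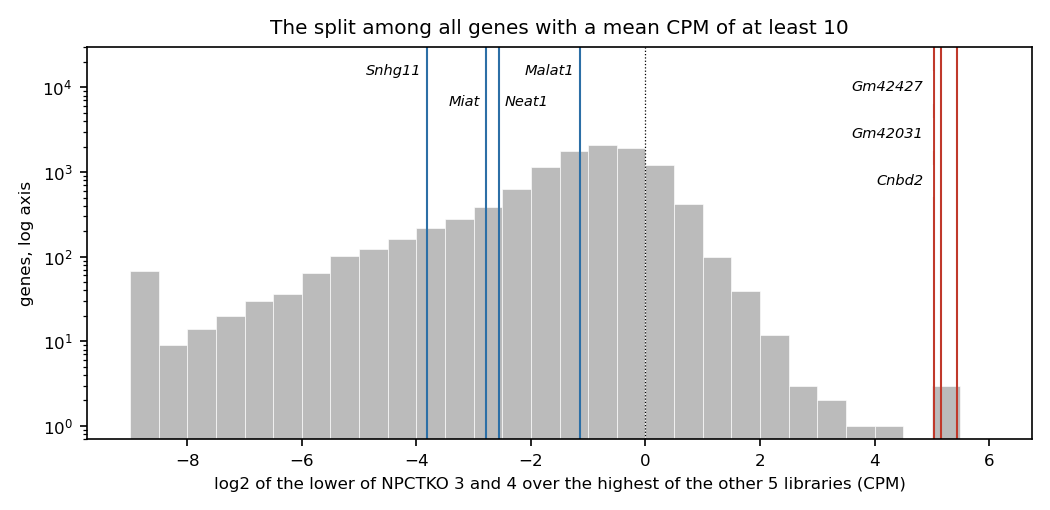
Number of genes (log axis) by the log2 ratio of the lower of NPCTKO 3 and 4 to the highest of the other 5 libraries, over 10867 genes, with ratios below the axis drawn in the leftmost bar. Red lines mark *Cnbd2*, *Gm42031* and *Gm42427*, from 32.7-fold to 43.4-fold, and blue lines mark the reference RNAs, all left of 0.

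*Gm43305*, at chr14:54292443-54297343 on the minus strand, had 99.7, 94.8, 2106 and 2317 CPM in NPCTKO 1 to 4, against 92.6, 74.4 and 91.8 CPM in NSCHRas-shp53 1 to 3. It was the gene whose log2(CPM + 1) ran closest to *Cnbd2* over the 7 libraries (Pearson r = 0.99), followed by *Aspm*, *Ago4*, *Psmd12* and *Erp44*. For *Gm42427* the closest were *Wdhd1*, *Pphln1*, *Top2a*, *Dtl* and *Tpx2*, and for *Gm42031* they were *Wdhd1*, *Mtfr2*, *Ccz1*, *Elovl4* and *Kntc1*, all at r of 0.99. The match is in shape and not in size. *Wdhd1*, a DNA replication factor, had 17.3, 16.7, 53.8 and 56.2 CPM in NPCTKO 1 to 4, against 11.9, 9.27 and 10.8 CPM in NSCHRas-shp53 1 to 3.

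None of the neighbours given here had a split of 2-fold or more. *Tapt1*, 31883 bases to the right of *Gm42427*, had 51.6, 60.8, 105 and 80.2 CPM in NPCTKO 1 to 4, against 57.1, 55.4 and 53.3 CPM in NSCHRas-shp53 1 to 3, so NPCTKO 3 and 4 were highest there too, by less. *Gm42428*, 1059 bases to the left, stayed under 1 CPM in all libraries. *Zfp791* beside *Gm42031* lay between 1.15 and 2.202 CPM in all libraries. *Phf20* beside *Cnbd2* had 66.6 to 69.2 CPM in NPCTKO and 66.9 to 96.6 CPM in NSCHRas-shp53 libraries. *Scand1*, which overlaps *Cnbd2* on the other strand, had 225, 159, 40.4 and 56.5 CPM in NPCTKO 1 to 4, against 46.1 and 77.5 CPM in NSCHRas-shp53 1 and 2, with NSCHRas-shp53 3 lowest. The kit did not mark strand, so reads where they overlap cannot be assigned by strand.

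Because several of these loci carry similar sequence, GENCODE transcripts were compared by exact 31-base words, a comparison added after the split was seen. Of the words of *Gm42427*, 53.2% also occur in transcripts of other genes, on either strand, as do 74.2% for *Gm42031* and 29.8% for *Cnbd2*. The reference RNAs stood at 6.81% for *Malat1*, 2.196% for *Neat1*, 26.9% for *Miat* and 6.87% for *Snhg11*. The longest exact run between *Gm42427* and *Gm42031* is 112 bases, at chr5:44142549-44142660 and chr8:85126413-85126524. *Gm42031* and *Gm43305* share a run of 184 bases. *Cnbd2* shares sequence with them only in reverse orientation and only in transcript Cnbd2-202, whose exon 10 of 10 at chr2:156356526-156357102 holds it. The span from the first to the last shared word covers 334 coding bases and 191 bases of untranslated region, not all of them shared. The longest exact run of *Cnbd2* is 105 bases with *Gm42031* and 80 bases with *Gm42427*. Counts of these genes are therefore uncertain, since the authors' counting could have split reads between near-identical stretches. Only transcripts were compared, so the introns of *Cnbd2* were not examined.

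Both *Gm42427* and *Gm42031* lie between or across direct repeats. A stretch of 558 bases at chr5:44142678-44143235 inside *Gm42427* is identical to the whole of *Gm42429* at chr5:44134393-44134950, and the unit from one copy to the other spans 8843 bases. *Gm42031* holds identical copies of 557 bases at chr8:85131686-85132242 in exon 1 and chr8:85125872-85126428 in exon 2, a unit of 6371 bases. The RefSeq start of *Gm42031*, at position 85131814, falls inside the first copy, with TATAAA starting 27 bases before it. Read from stop to stop, *Gm42427* has open frames of 921 and 690 codons. The longer holds the amino acids YVDD, the other a CX6CC pattern (C, any 6 residues, CC), and *Gm43305* has a frame of 592 codons with a zinc knuckle of CCHC type.

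Over 55341 GENCODE genes, a frame of at least 500 codons with YVDD was found in 0.0705%, one with CX6CC in 0.322% and one with the CCHC knuckle in 0.0976%. As background, direct repeats at both ends and these protein patterns are known from retroviruses and the retrovirus-like elements of mouse chromosomes. The annotation used here does not name *Gm42427*, *Gm42031* or *Gm43305* as such, and the matches are descriptions of sequence, not of function. Sequences of these loci are not printed.

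Besides the members, 19 genes of the count table shared at least 20 words with *Gm42427* or *Gm42031*, and 10 of them had a mean CPM of at least 10. Of the 10, 3 had NPCTKO 3 and 4 above the other libraries and 1, *Gm43305*, at least 2-fold, beside 16.6% and 1.46% of all genes. *Chd9*, a chromatin remodeler, had 14.7, 42.7, 106 and 123 CPM in NPCTKO 1 to 4, against 114, 188 and 165 CPM in NSCHRas-shp53 1 to 3. *AI506816* had 47.5, 0.70, 19.7 and 5.73 CPM in NPCTKO 1 to 4, against 155, 146 and 191 CPM in NSCHRas-shp53 1 to 3. Every NPCTKO library was below every NSCHRas-shp53 library there, with NPCTKO 3 and 4 between NPCTKO 2 and NPCTKO 1.

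**Figure D3:**
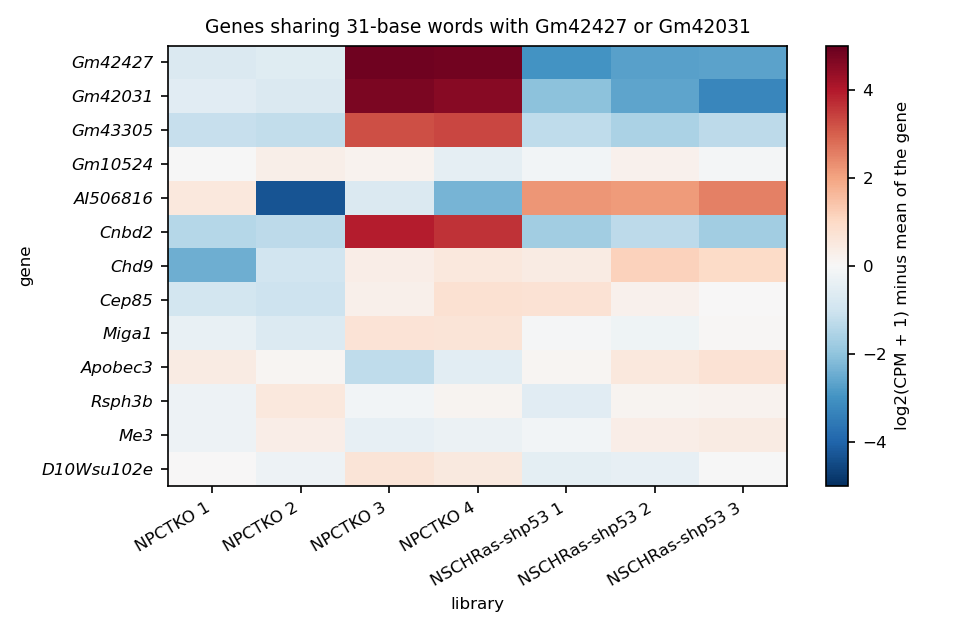
Log2(CPM + 1) minus the mean of each gene (color) in each library, NPCTKO left of NSCHRas-shp53, for *Gm42427*, *Gm42031* and the genes with a mean CPM of at least 10 that share at least 20 31-base words with them. Only *Gm42427*, *Gm42031*, *Gm43305* and *Cnbd2* of the genes drawn stand out in red in NPCTKO 3 and 4.

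In the comparison of the models, edgeR's quasi-likelihood test called 850 of 16091 genes higher (5.28%) and 1251 lower (7.77%) in NPCTKO at a Benjamini-Hochberg adjusted p of 0.05, and all 7 genes described here passed its filter. Of the 4 reference RNAs, 1, *Neat1*, was called lower and none was called higher. In FPKM, limma called 848 of 13485 genes higher (6.29%) and 1248 lower (9.25%), and *Neat1* alone of the 4.

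*Neat1* had 77.4, 60.5, 114 and 217 CPM in NPCTKO 1 to 4, against 476, 675 and 419 CPM in NSCHRas-shp53 1 to 3. Every NPCTKO library lay below every NSCHRas-shp53 library. The log2 fold change was -2.16 (SE 0.48, edgeR adjusted p = 0.0237). It was -1.70 (adjusted p = 0.0339) without NPCTKO 1 and 2 and -2.91 (adjusted p = 0.000944) without NPCTKO 3 and 4, omissions chosen after seeing the data. The call was lost without NPCTKO 1 (edgeR adjusted p = 0.0547) and without NSCHRas-shp53 1, 2 or 3 (0.0605, 0.0958 and 0.0718), with fold changes between -2.30 and -1.94 on the log2 scale. In FPKM the log2 difference was -2.27 (SE 0.46, limma adjusted p = 0.0149), and this call too was lost without NSCHRas-shp53 1, 2 or 3 (limma adjusted p = 0.0519, 0.0652 and 0.05004). The genes nearest to *Neat1* in pattern were *Ano1*, *Clcf1*, *Mcc*, *Net1* and *Chrdl1*, at Pearson r of 0.99 to 1.00 over the 7 libraries.

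*Malat1* had 148, 171, 741 and 837 CPM in NPCTKO 1 to 4, against 1243, 1637 and 1489 CPM in NSCHRas-shp53 1 to 3. The models did not overlap, and NPCTKO 3 and 4 lay between NPCTKO 1 and 2 and NSCHRas-shp53. With a log2 fold change of -1.62 (SE 0.66), *Malat1* did not pass the test (edgeR adjusted p = 0.14). Without NPCTKO 3 and 4 it passed, at -3.18 (SE 0.32, edgeR adjusted p = 0.000828), and without NPCTKO 1 and 2 it was at -0.92 (SE 0.32, adjusted p = 0.092). Both omissions were chosen after seeing the data. The first took out the NPCTKO libraries nearest to NSCHRas-shp53, so its p-value is no independent test. *Sh3bgrl*, *Acbd5*, *Itgav*, *Gm37494* and *Zscan26* ran closest to it, at r of 0.99 to 1.00.

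*Snhg11* had 12, 20, 387 and 3408 counts in NPCTKO 1 to 4, against 2070, 5583 and 6106 counts in NSCHRas-shp53 1 to 3. In CPM these were 0.81, 1.56, 20.1 and 206 in NPCTKO 1 to 4, against 113, 283 and 264 in NSCHRas-shp53 1 to 3. NPCTKO 4 alone of its model reached the NSCHRas-shp53 range. The log2 fold change was -1.95 (SE 1.5003, edgeR adjusted p = 0.417). Without NPCTKO 4 it was -4.86 (adjusted p = 0.0496), and without NPCTKO 3 and 4 it was -7.53 (SE 0.62, adjusted p = 0.000577). Leaving out NPCTKO 3 and 4 was chosen after seeing the data. Each of these omissions took out what lay nearest to NSCHRas-shp53 among the NPCTKO libraries, so neither p-value is an independent test. The neuron and astrocyte markers given above were also higher in the NSCHRas-shp53 libraries by their sums, as were the endothelial ones. The part of these cell types in the levels of *Snhg11*, *Malat1* and *Neat1* was not tested. *Zfp715*, *Zfand6*, *Cd109* and *Wnt7b* ran closest to *Snhg11*, at r of 0.99.

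*Miat* had 41.3, 8.10, 12.4 and 5.97 CPM in NPCTKO 1 to 4, against 12.6, 8.81 and 19.7 CPM in NSCHRas-shp53 1 to 3. The models overlapped, NPCTKO 1 was highest, and the log2 fold change was 0.30 (SE 0.69, edgeR adjusted p = 0.807). Its sign turned without NPCTKO 1, at -0.66 (adjusted p = 0.441). *Rcan3* was closest to *Miat* at r = 0.95, a looser match than for the other genes.

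Among each other, *Malat1* and *Snhg11* had a Pearson r of 0.96, *Malat1* and *Neat1* 0.92 and *Neat1* and *Snhg11* 0.91 over the 7 libraries, as a description of libraries that share model and preparation. *Miat* was at r of -0.42 to -0.21 with the other 6 genes.

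**Figure D4:**
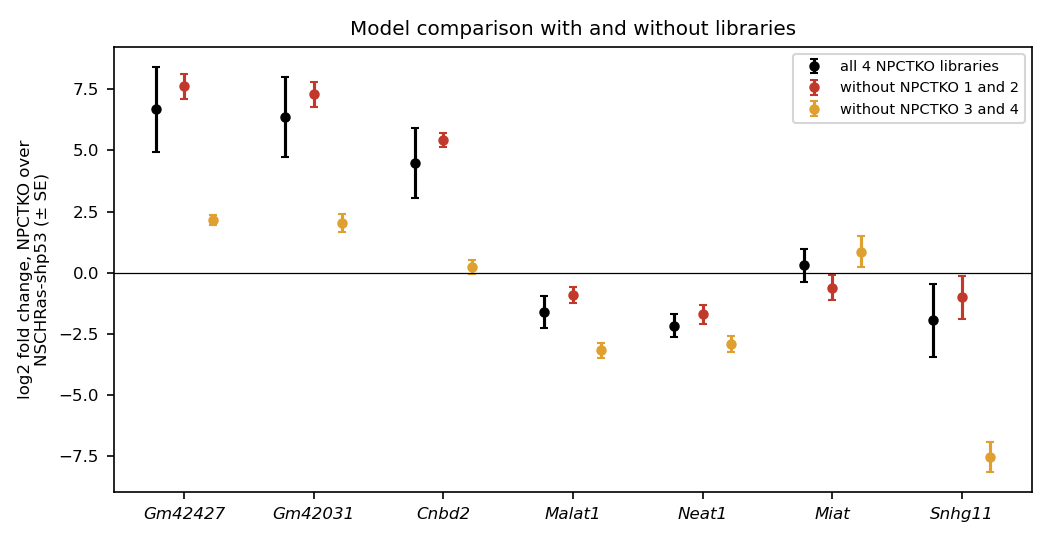
Log2 fold change of NPCTKO over NSCHRas-shp53 with its SE for the 7 genes, with all libraries (black), without NPCTKO 1 and 2 (red) and without NPCTKO 3 and 4 (yellow). *Gm42427* drops to 2.15 and *Cnbd2* to 0.22 without NPCTKO 3 and 4, whereas *Snhg11* is at -7.53 there. The omissions were chosen after seeing the data.

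The count table and the FPKM table, made with Cufflinks, were then set side by side. Only 5 of the 7 genes have an FPKM row under their name, and *Gm42427* and *Gm42031* were read from counts alone. *Cnbd2* had 1.06, 1.41, 0.67 and 1.15 FPKM in NPCTKO 1 to 4, against 0.87, 1.58 and 0.88 FPKM in NSCHRas-shp53 1 to 3. So the split of *Cnbd2* seen in counts was not seen in FPKM, where its log2 difference was -0.02 (SE 0.23). Which part of the gene, exons or introns, the counted reads came from was not tested. Over the 7 libraries the Pearson r between its log2(CPM + 1) and log2(FPKM + 1) was -0.35, lower than for all but 15 of 9806 genes, whose median was 0.98. Among 2102 genes with a mean CPM of at least 100 the 5 lowest were *Ctnnb1* at -0.41, *Tor1aip2* at -0.37, *Cnbd2*, *Rbbp6* at -0.34 and *Ube2d3* at -0.31. *Cnbd2* reached this minimum only through NPCTKO 3 and 4, the libraries for which it was picked. Its r turns on the same values, so its place among the genes is a description.

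The reference RNAs ran alike in both tables, at r of 0.95 for *Miat* and 1.00 for *Malat1*, *Neat1* and *Snhg11*. *Malat1* had 34.2, 38.0, 157 and 185 FPKM in NPCTKO 1 to 4, against 230, 264 and 288 FPKM in NSCHRas-shp53 1 to 3. *Snhg11* had 0.23, 0.37, 4.05 and 46.0 FPKM in NPCTKO 1 to 4, against 25.7, 55.7 and 55.9 FPKM in NSCHRas-shp53 1 to 3. Per length of transcript, as FPKM is scaled, *Malat1* was above *Neat1* in every library. On the log2(FPKM + 1) scale, which understates the change of low genes, the differences were -1.71 for *Malat1* (SE 0.63, limma adjusted p = 0.107), -3.30 for *Snhg11* (SE 1.162, adjusted p = 0.0935, and -4.44 with adjusted p = 0.00655 without NPCTKO 4) and -0.09 for *Miat* (SE 0.51, adjusted p = 0.926). NPCTKO 4 was the highest of its model for *Snhg11*, so the p-value without it is no independent test.

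**Figure D5:**
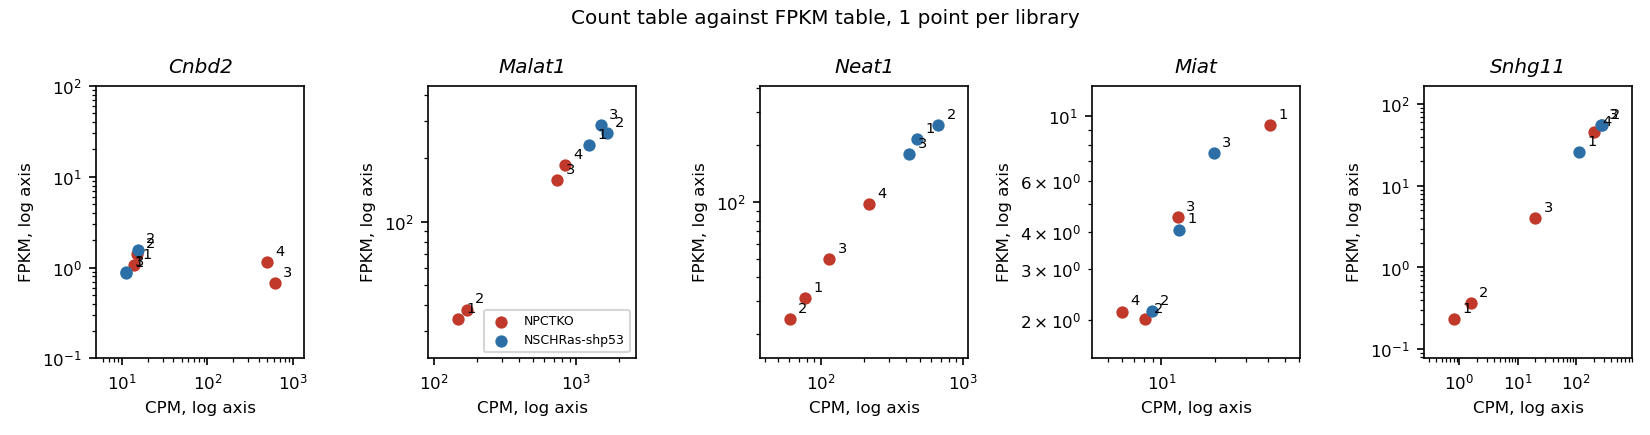
FPKM against CPM (log axes) for the 5 genes found in both tables, NPCTKO in red and NSCHRas-shp53 in blue, with replicate numbers. *Cnbd2* stays between 0.67 and 1.58 FPKM while its CPM runs up to 609, and the other 4 genes run together in both tables.

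Lists of related genes, the members left out, were read beside all genes, whose median log2 fold change was 0.10 and of which edgeR called 5.28% higher and 7.77% lower. Of the 16091 genes that passed edgeR's filter, 4881 had an unadjusted p under 0.05 in edgeR. DESeq2 called 1732 of these 16091 genes higher and 1920 lower. Of 32 other nuclear and chromatin long noncoding RNAs tested, 3 were higher and 3 lower in NPCTKO (3 and 8 by DESeq2), with a median of -0.27. *Hotairm1*, an RNA of the *Hoxa* cluster, had 2.41 to 7.70 CPM in NPCTKO and 0.30 to 0.39 CPM in NSCHRas-shp53 libraries (log2 fold change 3.73, edgeR adjusted p = 0.00819). *Mir124a-1hg*, host of a neuronal microRNA, fell by 2.85 on the log2 scale (adjusted p = 0.00794), and *Bvht* fell by 2.55 (adjusted p = 0.0148). *A830036E02Rik* had 0 counts in all 4 NPCTKO libraries and 4.19 ± 1.47 CPM in NSCHRas-shp53 libraries (SD, n = 3), at least 21.7-fold lower in NPCTKO against a floor of 3 counts per library.

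Of 19 snoRNA host genes, 1, *Snhg17*, was called higher, at 51.1 to 85.5 CPM in NPCTKO and 23.1 to 32.5 CPM in NSCHRas-shp53 libraries (log2 fold change 1.12, edgeR adjusted p = 0.0429), and none lower, with a list median of 0.74. DESeq2 called 5 of them higher and none lower, and 6 had an unadjusted p under 0.05 in edgeR, beside 4881 of all 16091 genes. *Snhg17* lies 14058 bases from *Snhg11*. Of 22 paraspeckle protein genes, edgeR called none in either direction, with 3 at an unadjusted p under 0.05 and 2 called higher by DESeq2, and the median was 0.27. *Nono*, a core paraspeckle protein, had 326 to 393 CPM in NPCTKO and 180 to 195 CPM in NSCHRas-shp53 libraries (log2 fold change 0.95, edgeR adjusted p = 0.0504). Of 22 nuclear speckle protein genes, 2 were higher and none lower, with a median of -0.02. These were the mRNA export factors *Alyref* (log2 fold change 1.88, edgeR adjusted p = 0.015) and *Ddx39b* (1.42, adjusted p = 0.0295). Of 3 tested genes at ribosomal RNA loci or named for them, *Gm26917* was higher, at 408 to 2208 CPM in NPCTKO and 69.9 to 117 CPM in NSCHRas-shp53 libraries (log2 fold change 3.54, edgeR adjusted p = 0.0163). It is also 1 of the 3 higher genes of the list of nuclear and chromatin RNAs. Small structured RNAs without a poly(A) tail passed the filter in 2 of 38 cases. None of these 2 was called by edgeR, 1 had an unadjusted p under 0.05, and DESeq2 called 1 higher.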

How the data were processed

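Bulk RNA-seq was analysed for 4 NPCTKO and 3 NSCHRas-shp53 libraries. The raw counts per gene, as deposited by the authors, rest on TopHat 2.1.1 alignments to mm10 (GRCm38) after trimming by Cutadapt. Which tool counted the reads is not stated in the labels or the methods. The deposited FPKM values are the authors' output of Cufflinks 2.2.1 (versions per the submitters' processing notes). The FPKM table has 28538 rows, of which 3767 carry no gene name and were left out, and rows with 1 name were summed by name. The library kit was not directional. All 11012 genes of 1 interval lying wholly inside another have 0 counts in all libraries, so such zeros were not read as absence.

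Counts were fitted with edgeR 4.0.16 (TMM, filterByExpr, quasi-likelihood test) in R 4.3.3, and log2(FPKM + 1) with limma 3.58.1 for a mean FPKM of at least 0.5. The SE of a fold change in counts was taken from the fold change and the F statistic. Fold changes are NPCTKO over NSCHRas-shp53, p-values are two-sided and adjusted over all genes by Benjamini-Hochberg. DESeq2 1.42.0, other scalings, filters, pseudocounts and left-out libraries were alternatives, and the fits were tested on simulated data. Sequences came from GENCODE M21 and RefSeq (GRCm38.p6). Python 3.11.15 with pandas 2.3.3 made the rest.

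The genes and lists were chosen with earlier results of these data known. The genes named are the members, the 5 genes nearest in pattern, neighbours, the 4 with the smallest p per list of related genes as space allowed, and the 5 genes with the lowest r between the tables. Some items that the rule or the design would name are not reported here. SEs and SDs cover the spread between these libraries, and floors cover counting error only.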

Additional observations from a re-analysis of the deposited data

Results flagged for a closer look

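*Snhg11* in NPCTKO 4 lay far from the other 3 NPCTKO libraries in both tables, by the size of its gap to the next library relative to the range of the 4. It had 206 CPM in NPCTKO 4, with 0.81, 1.56 and 20.1 CPM in NPCTKO 1 to 3, and 46.0 FPKM in NPCTKO 4, with 0.23, 0.37 and 4.05 FPKM in NPCTKO 1 to 3. The gap took 0.906 of the range in CPM and 0.916 in FPKM. Both gaps were taken on unlogged values, and the gap on the log scale was not tested. For normally distributed values, chance alone passes the cutoff used for flagging in about 1 of 20 groups. Unlogged values running from 0.81 to 206 CPM need not follow that distribution, so the rate does not carry over to these gaps. The flag is a description, and both values come from the same libraries.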

How the results depend on the processing

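In all, 448 values over these 7 libraries were recomputed, of which 369 were marked as unchanged. A tested value had to keep its direction and its side of the threshold, and a count of genes had to stay within a set factor. *Snhg11* in DESeq2, which gave it no adjusted p, was also marked as unchanged. Values without a test had to stay within the spread between replicates. For the lists of related and marker genes, 28 of 225 medians moved further. The cause of a change was not tested. Without TMM factors the median log2 fold change of all genes was -0.09 in place of 0.10, 540 genes were called higher in NPCTKO, and *Miat* turned to -0.034. DESeq2's Wald test, over 25184 genes without edgeR's filter, called 1861 genes higher and 2183 lower. In FPKM in place of CPM, 2 genes had the split at 10-fold or more.

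Leaving out 1 library at a time gave 124 to 1208 genes called higher and 415 to 1387 lower in counts, and 219 to 995 higher and 620 to 1178 lower in FPKM. In counts, genes called higher numbered 424 and 430 without NPCTKO 1 or 2 and 234, 143 and 124 without NSCHRas-shp53 1, 2 or 3, and genes called lower 704, 459 and 415 without NSCHRas-shp53 1, 2 or 3. The log2 fold change in counts then ranged from -2.63 to -1.94 for *Neat1*, -4.86 to -1.57 for *Snhg11*, -0.66 to 0.65 for *Miat* and -2.04 to -1.35 for *Malat1*. In FPKM it ranged from -2.65 to -1.98 for *Neat1*, -4.44 to -2.68 for *Snhg11* and -0.46 to 0.27 for *Miat*. Without NPCTKO 1 and 2, chosen after seeing the data, *Miat* was at -0.61. Without NPCTKO 3 and 4, also chosen then, 4313 genes were called higher and 4638 lower, *Malat1* was at -3.18 and *Snhg11* at -7.53.

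Libraries with the same replicate number had r of 0.28, -0.19 and 0.19 between their deviations, for the pairs 1 to 3. Of NPCTKO 1 to 3, only NPCTKO 1 correlated best with its own number. NPCTKO 1 and 2 had r of 0.28 and 0.35 with NSCHRas-shp53 1, against -0.32 and -0.26 for NPCTKO 3 and 4. These values cannot show whether libraries of the same number share a batch or a pairing. With the replicate number as a block, which leaves out NPCTKO 4, 327 genes were called higher and 742 lower in counts and 488 higher in FPKM. Under this block *Snhg11* was at -6.12 in counts and -4.44 in FPKM, *Malat1* at -2.12 in FPKM and *Miat* at 0.11 in FPKM. There *Snhg11* passed the threshold (adjusted p = 0.0249 in edgeR and 0.0126 in limma), as did *Malat1* in FPKM (0.0436 in limma). The library left out, NPCTKO 4, was the highest of its model for both genes, so these p-values are no independent test.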

Other observations

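Of the 3767 rows of the FPKM table without a gene name, 70 had NPCTKO 3 and 4 each at least 10-fold above all 5 other libraries, and 11 of those had at least 1 FPKM in both. Without names or coordinates in that table these rows could not be matched to *Gm42427*, *Gm42031* or any other locus.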
